A study of Homo sapiens with 24 samples.

Results

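Chromatin accessibility at 10 genes that encode the machinery of RNA polymerase II pausing and elongation was followed in 2 lymphoma cell lines after inhibition of CDK9. The genes were NELFA, NELFB, NELFCD, NELFE, SUPT4H1, SUPT5H, SUPT6H, PAF1, POLR2A and CDK7. A called region was placed at a gene when it lay within 5 kb of one of the gene's annotated transcription start sites (TSS) or overlapped the gene body, in the hg19 build with GENCODE annotation. By this rule 16 of the 26369 distinct regions in the 8 deposited lists fell at 9 of the 10 genes, all 16 in lists of increased accessibility.

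OCI-LY3 and VAL are established lines of diffuse large B-cell lymphoma. Both were exposed to 30 nM AZD4573, a selective CDK9 inhibitor, and harvested after 3 h and 8 h, and each treated group was compared with the control of its own line. The labels list this control as 0 h, while the names of the deposited lists call it DMSO, and whether the 0 h cells received DMSO is not given in the sources used here. The labels list 24 ATAC-seq libraries, made with a transposase that cuts accessible DNA, 4 for each of the 6 groups of line and time. Of the 4 libraries in a group, 2 were made by the standard protocol and 2 by Fast-ATAC. The labels describe treatment in duplicate and do not say whether the libraries of the 2 protocols came from separate cultures. Each line stands for a single cell culture model, and neither is a normal B cell. The lists hold the coordinates of regions that passed the authors' thresholds and no value per library, so depth and the spread between libraries are unknown here. No size of change, error or test between samples could therefore be given from the lists, and a gene absent from a list may have changed below the threshold or may have had no peak. The study also cites a supplemental table for the changed regions, which was not used here.

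In the pausing step of transcription, the negative elongation factor NELF and the SPT4-SPT5 complex DSIF hold RNA polymerase II a short distance downstream of the TSS. CDK9, the kinase of P-TEFb, phosphorylates NELF, SPT5 and the polymerase tail, after which NELF leaves and the polymerase moves on together with SPT6 and the PAF1 complex. CDK7, the kinase of the general factor TFIIH, acts earlier on the polymerase tail and activates other cyclin-dependent kinases, CDK9 among them.

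The promoter sequences differed widely between the 10 genes. The RefSeq promoter of each, 250 bases before to 50 bases after the start on GRCh38, matched hg19 once, with its start at the canonical GENCODE TSS. GC content over these 300 bases was lowest at CDK7, with 55.7%, and highest at NELFB, with 79.3%. CpG dinucleotides numbered 18 at CDK7 and 48 at NELFB, and their ratio to the number that base composition gives ran from 0.775 at CDK7 to 1.07 at NELFA. The DNA immediately upstream of the first exon is shown for 4 genes with contrasting calls, 5′ to 3′ along the gene. NELFB and NELFE were in all 4 increased lists, POLR2A in both lists of VAL, and CDK7 in none. Capitals mark the motif letters named in the next paragraph where they lay wholly within the printed bases, and annotated exons of either strand were left out.
NELFB (chr9:140149529-140149778, plus strand): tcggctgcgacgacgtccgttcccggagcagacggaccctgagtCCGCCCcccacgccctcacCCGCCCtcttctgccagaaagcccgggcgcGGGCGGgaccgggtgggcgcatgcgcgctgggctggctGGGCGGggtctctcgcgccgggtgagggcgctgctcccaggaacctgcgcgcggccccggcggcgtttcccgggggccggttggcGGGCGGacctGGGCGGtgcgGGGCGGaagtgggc
NELFE (chr6:31926816-31926892, minus strand): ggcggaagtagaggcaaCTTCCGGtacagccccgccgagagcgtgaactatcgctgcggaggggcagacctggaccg
POLR2A (chr17:7387583-7387684, plus strand): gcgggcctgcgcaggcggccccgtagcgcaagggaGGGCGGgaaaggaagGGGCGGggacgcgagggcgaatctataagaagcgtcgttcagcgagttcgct
CDK7 (chr5:68530463-68530621, plus strand): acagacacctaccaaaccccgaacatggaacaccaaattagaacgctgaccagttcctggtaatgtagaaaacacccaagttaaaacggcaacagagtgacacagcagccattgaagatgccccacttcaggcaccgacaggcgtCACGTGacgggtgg

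The 77 bases of NELFE are the whole stretch between its first exon and that of SKIC2, which is transcribed away from it, and the 102 bases of POLR2A likewise end at a start of ZBTB4. Of the 8 motifs searched on both strands, GGGCGG, the GC box bound by SP factors, occurred in the promoters of 9 of the 10 genes and in 45.0% of the 35116 RefSeq promoters of the same length. NELFB held 9 copies within its 300 bases, SUPT4H1 held 5, and NELFA was the gene without one. CCGGAAG, the core of ETS sites, was found at NELFA, NELFE and SUPT4H1 and in 10.3% of all promoters. TGACGT, the core of the cAMP response element, was found at NELFE, SUPT6H and PAF1, against 7.98% of promoters. AAGATGG, as in YY1 sites, was found at NELFA and SUPT5H, against 5.84%. Within these 300 bases, CCAAT was present at PAF1 alone among the 10, with 3 copies, and in 34.6% of promoters. CACGTG, the E-box, was present at CDK7 alone, against 7.26%. TATAAA and TGACTCA, the TATA box and the AP-1 site, were in none of the 10 windows of this length and in 11.5% and 4.95% of promoters. None of these motifs is contained in another. Around the canonical TSS of 19881 protein-coding genes, a window of the same 300 bases held GGGCGG in 61.4%, CCGGAAG in 14.1%, TGACGT in 9.50% and AAGATGG in 6.41%. The counts for several motifs depended on the window. With 500 bases before and 100 after the TSS, CCGGAAG was found at 7 of the 10 genes and at 17.6% of protein-coding genes, and AAGATGG at 5 genes and 11.0%. In that window CCAAT was found at 3 genes and 52.7%, and TATAAA at 1 gene and 18.6%.

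The number of genes with increased accessibility was 4 of 10 in OCI-LY3 at 3 h, 4 of 10 at 8 h, 6 of 10 in VAL at 3 h and 9 of 10 at 8 h. These shares were 40.0%, 40.0%, 60.0% and 90.0%. Over all 20162 protein-coding genes, the same rule placed an increased region at 9.34% of genes for the 3 h list of OCI-LY3 and 17.1% for its 8 h list, and at 15.2% and 34.6% for those of VAL. The share among the 10 genes thus lay above that of all genes in each list. The 10 genes were chosen with earlier results of these data known, so this difference is not independent evidence. At each gene counted, the increased region covered a TSS of the gene itself. A TSS inside an increased region was found for 5.80% of protein-coding genes in OCI-LY3 at 3 h, 8.97% at 8 h, 10.0% in VAL at 3 h and 24.0% at 8 h. The all-gene shares include genes that may have had no peak in these cells, since the authors' common peak set was not used here.

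No decreased region was placed at any of the 10 genes in any list. Of all protein-coding genes, 4.66% had one in OCI-LY3 at 3 h, 7.41% at 8 h, 4.24% in VAL at 3 h and 13.1% at 8 h. With shares this low, 0 of 10 is near the background in each list. The decreased lists themselves were long, with 1677 and 3463 regions in OCI-LY3 at 3 h and 8 h and 1786 and 9260 in VAL. The increased lists held 1852, 4367, 3545 and 11121 regions in the same order.

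**Figure D1:**
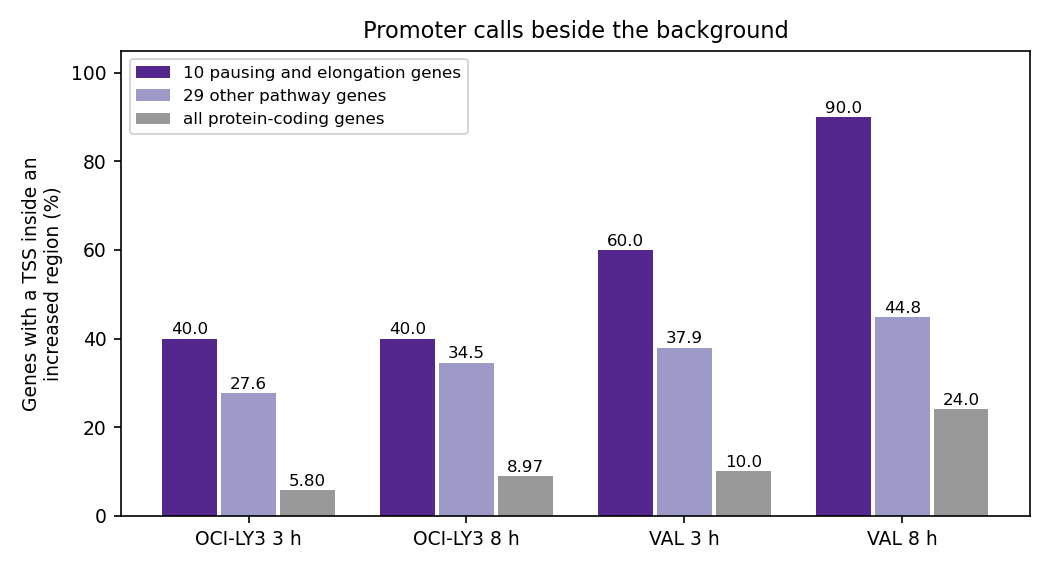
Share of genes (%, y axis) with an annotated TSS inside a region of increased accessibility in each of the 4 comparisons (x axis), for the 10 pausing and elongation genes, 29 other genes of the same machinery and all 20162 protein-coding genes. The bars of the 10 genes run from 40.0% to 90.0% and stand above the other bars in each comparison; the 10 and the 29 genes were chosen with earlier results of these data known.

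The genes fell into 4 call patterns over the lists. NELFB, NELFE, SUPT5H and SUPT6H had their TSS inside an increased region in all 4 lists, a pattern shared by 558 protein-coding genes or 2.77%. PAF1 and POLR2A had theirs in both lists of VAL and in neither of OCI-LY3, as did 906 genes or 4.49%. For NELFA, NELFCD and SUPT4H1 the promoter was listed in VAL at 8 h alone, a pattern of 2338 genes or 11.6%. CDK7 had no TSS inside an increased region in any list, as held for 14783 genes or 73.3%. The 3 h and 8 h lists of a line share a control, and whether the lines or times differ in the size of the change could not be tested.

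**Figure D2:**
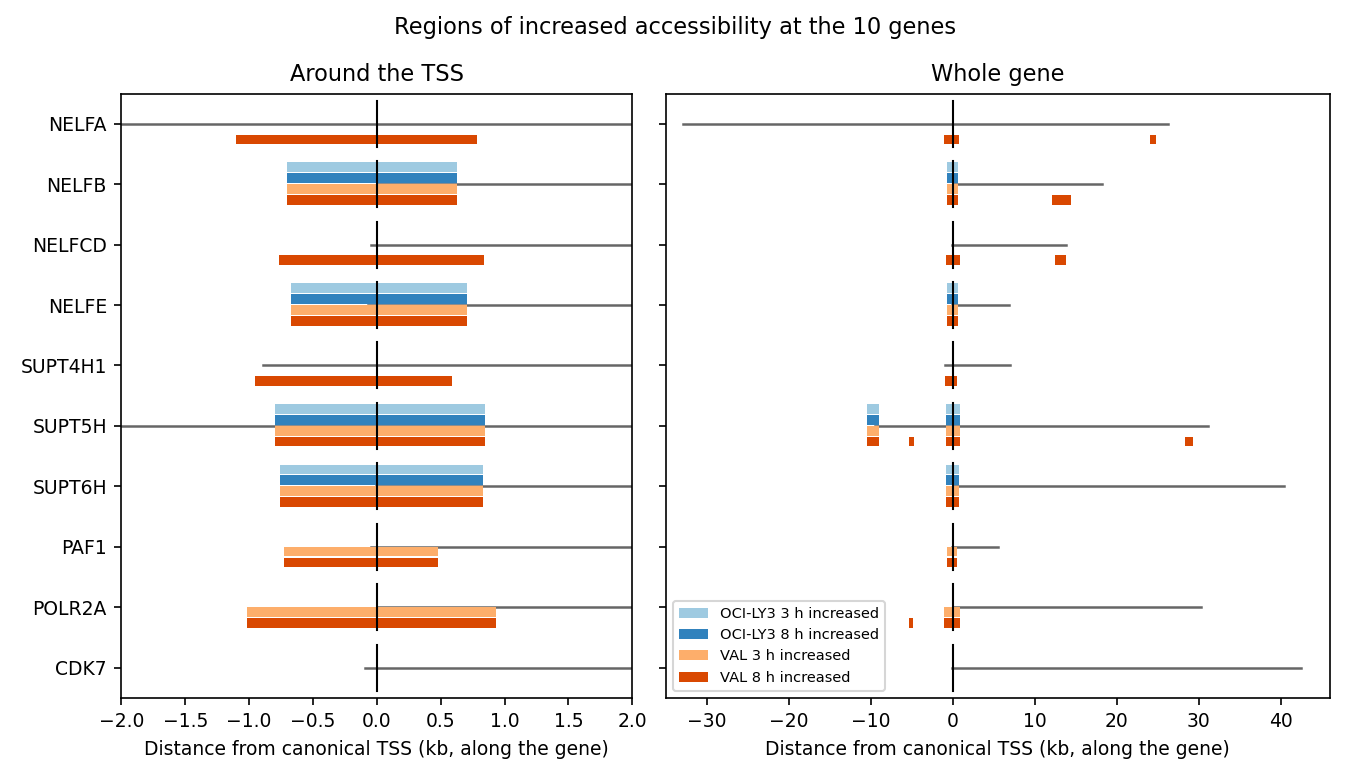
Position of each increased region relative to the canonical TSS (x axis, kb along the gene; vertical tick at 0) for the 10 genes (y axis), close to the TSS on the left and over the whole gene on the right. Coloured bars are regions, 1 colour per comparison, and grey lines are gene bodies; 9 of the 16 regions cover a TSS of their own gene from a transcript tagged basic in GENCODE, and CDK7 has no region.

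NELF has 4 subunits, and their promoters fell into 2 of these patterns. NELFB, a subunit at the core of the complex, lies at chr9:140149779-140167994 on the plus strand. Its promoter region, chr9:140149073-140150406, reached from 706 bp upstream to 627 bp downstream of the TSS over exons 1 and 2 and was increased in all 4 lists. This region had a GC content of 73.1%, the highest of the 9 promoter regions, which ranged down to 53.3% at SUPT5H. NELFE, the RNA-binding subunit, lies at chr6:31919864-31926815 on the minus strand. Its region, chr6:31926044-31927419, was also increased in all 4 lists and covered 4 annotated starts of NELFE together with that of SKIC2, a subunit of the SKI complex of RNA decay, which starts 145 bp away on the opposite strand.

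NELFA and NELFCD were listed in VAL at 8 h and in no other list. NELFA, the subunit that contacts the polymerase, lies at chr4:1984444-2043630 on the minus strand, and its promoter region, chr4:2009920-2011806, was 1887 bp wide over exon 1 and intron 1. In the other 3 lists the nearest increased region lay 151893 bp from its TSS. NELFCD, which pairs with NELFA, lies at chr20:57556263-57570188 on the plus strand, and its promoter region was chr20:57555542-57557153. The start of a long noncoding RNA on the opposite strand lay 87 bp from its TSS, inside the same region. Each of NELFA, NELFB and NELFCD had a further increased region inside its gene body in VAL at 8 h. At NELFA this was chr4:1985930-1986582 over exon 8 and intron 8, at NELFB chr9:140161885-140164159 within intron 10, and at NELFCD chr20:57568819-57570099 over exons 13 to 15, where the body of CTSZ, a lysosomal protease gene, overlaps it. These 3 regions had ratios of observed to expected CpG of 0.240, 0.341 and 0.445, below the 0.835, 0.821 and 0.840 of the promoter regions of the same genes. The protein-coding TSS nearest to each of the 3 belonged to another gene. The share of all genes with an increased region in the body away from the TSS was not counted.

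The DSIF genes differed in the same way. SUPT5H, which encodes SPT5, lies at chr19:39926796-39967310 on the plus strand, and its promoter region, chr19:39935423-39937068, was increased in all 4 lists. It covered exons 1 and 2 and 4 annotated starts, from 799 bp upstream to 846 bp downstream of the canonical TSS. SUPT4H1, which encodes the small partner SPT4, lies at chr17:56422536-56430454 on the minus strand. Its region, chr17:56428975-56430519, was listed in VAL at 8 h alone and also overlapped the bodies of TSPOAP1-AS1 and of an unnamed protein-coding gene.

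SUPT5H had 3 further increased regions, the most of the 10 genes. The region chr19:39925715-39927207 was increased in all 4 lists, but it lay over the TSS of RPS16, a ribosomal protein gene on the opposite strand, and entered the count through an upstream-starting SUPT5H transcript. It lay 9015 bp to 10507 bp upstream of the canonical TSS of SUPT5H. The regions chr19:39930844-39931456, upstream of that TSS, and chr19:39964615-39965547, over exons 26 to 28, were increased in VAL at 8 h. Their GC content was 43.7% and 60.8%. The protein-coding TSS nearest to the region over exons 26 to 28 belonged to another gene.

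SUPT6H encodes the histone chaperone SPT6 and lies at chr17:26989216-27029697 on the plus strand. Its single region, chr17:26988465-26990053, was increased in all 4 lists and ran from 758 bp upstream to 830 bp downstream of the TSS over exon 1. It also held the start of SDF2, an endoplasmic reticulum protein gene, 299 bp away on the opposite strand. PAF1, the subunit that names the PAF1 complex, lies at chr19:39876269-39881794 on the minus strand, and its region, chr19:39881266-39882476, was increased in VAL at 3 h and 8 h. MED29, a Mediator subunit gene, starts 217 bp away on the opposite strand within the same region. A region just outside the 5 kb limit, chr19:39887880-39888977, lay 6086 bp from a PAF1 start and was increased in VAL at 8 h. Its nearest protein-coding TSS was that of MED29.

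POLR2A, the largest subunit of RNA polymerase II that carries the tail phosphorylated by CDK7 and CDK9, lies at chr17:7387685-7417933 on the plus strand. Its promoter region, chr17:7386665-7388618, was 1954 bp wide, the widest of the 9 promoter regions, and was increased in VAL at both times. It held a start of ZBTB4, a zinc finger gene, 103 bp away on the opposite strand, and touched the body of SLC35G6. A narrow region of 503 bp, chr17:7382315-7382817, was increased in VAL at 8 h and lay just inside the 5 kb limit, 4868 bp upstream of the TSS and 133 bp from another start of ZBTB4.

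CDK7, at chr5:68530622-68573257 on the plus strand with 12 exons, was the gene of the 10 with no region in any list. The nearest increased region lay 77919 bp from its TSS in both lists of OCI-LY3, 787672 bp away in VAL at 8 h and 2671322 bp away in VAL at 3 h. The nearest decreased region in VAL at 8 h, chr5:68431341-68432771, lay 97942 bp from it.

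Where a promoter region held starts of 2 genes in opposite directions, the call cannot be assigned to either gene. Among genes with the TSS inside an increased region, an opposite protein-coding start lay in the same region for 2 of 4 in each list of OCI-LY3, 4 of 6 in VAL at 3 h and 4 of 9 in VAL at 8 h. Over all protein-coding genes so called, the shares were 31.1% and 30.6% in OCI-LY3 at 3 h and 8 h, and 28.2% and 23.4% in VAL. The genes concerned were NELFE, SUPT6H, PAF1 and POLR2A.

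The lines have separate controls, so their lists can be set beside each other. At 3 h, all 5 regions increased at these genes in OCI-LY3 had the same coordinates as a region increased in VAL, and made up 71.4% of the 7 in VAL. At 8 h, all 5 of OCI-LY3 were again among those of VAL, where they were 31.2% of 16. For the whole increased lists, 39.4% of the OCI-LY3 regions and 20.6% of the VAL regions at 3 h were common to both lines, and 53.3% and 20.9% at 8 h. These whole lists also hold regions away from promoters. In OCI-LY3, 959 of 1852 at 3 h and 1558 of 4367 at 8 h lay within 1000 bp of a protein-coding TSS. All 5 OCI-LY3 regions at these genes covered a protein-coding TSS, so the shares are not of like regions. The overlap of promoter regions alone was not counted. The VAL list was the longer one at each time.

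The width of the regions at the 10 genes stood differently to whole lists and to promoter regions. Their median width was 1493 bp in OCI-LY3 at both times and in VAL at 3 h, beside list medians of 1506 bp, 1423 bp and 1448 bp. In VAL at 8 h it was 1434 bp, beside 1318 bp. Regions of the lists within 1000 bp of a protein-coding TSS were wider, with medians of 1656 bp, 1624 bp, 1598 bp and 1566 bp, so that the difference turned negative in the 3 lists where it had been positive. Their median GC content was 56.7% in both OCI-LY3 lists, 58.1% in VAL at 3 h and 58.4% at 8 h, and the list medians were 55.4%, 53.5%, 58.2% and 58.1%. Beside the list's own regions within 1000 bp of a protein-coding TSS, with medians of 60.4%, 60.5%, 63.0% and 63.0%, the medians at these genes differed by -3.66, -3.73, -4.94 and -4.63 percentage points. These differences were not tested, and both OCI-LY3 values rest on the same 5 regions. The median width of 1493 bp and the OCI-LY3 median GC content of 56.7% are the values of chr19:39925715-39927207. That region was placed at SUPT5H but lies over the TSS of RPS16. In VAL at 8 h, 7 of the 16 regions compared did not cover a TSS of their own gene from a transcript tagged basic in GENCODE. The ratio of observed to expected CpG was 0.720 at the median in the first 3 lists and 0.688 in VAL at 8 h. Promoter regions of the lists had 0.713, 0.696, 0.734 and 0.726, and the whole lists 0.521, 0.277, 0.517 and 0.420.

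**Figure D3:**
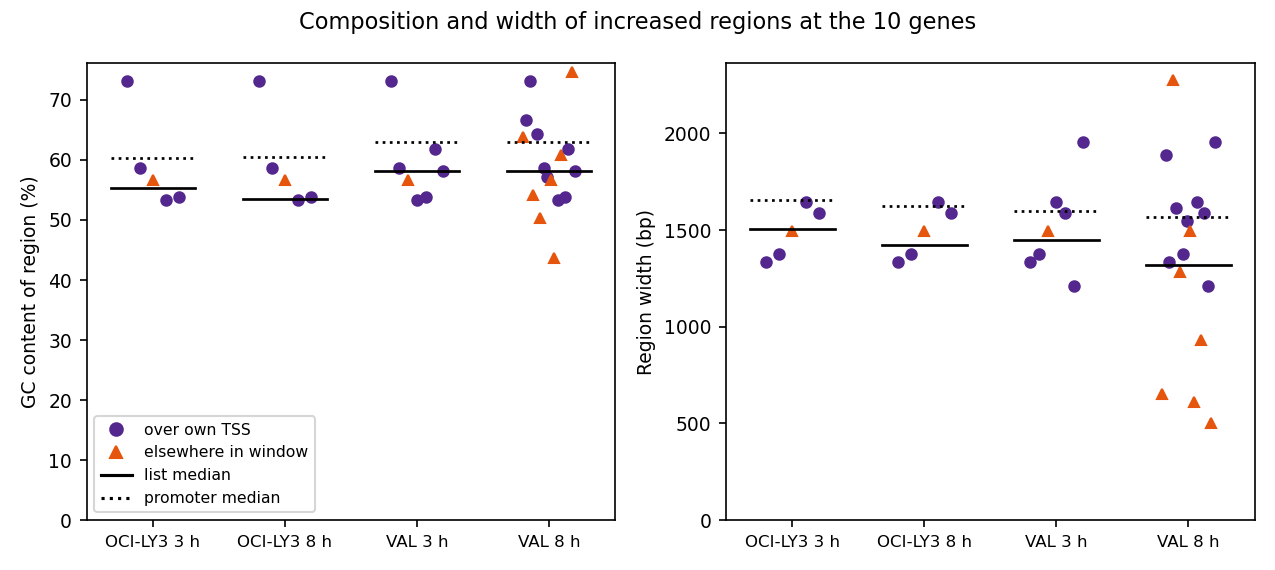
GC content (%, left y axis) and width (bp, right y axis) of each increased region at the 10 genes in each comparison (x axis). Circles are regions over the gene's own TSS from a transcript tagged basic in GENCODE, and triangles are the others. Solid lines are medians of the whole increased list and dotted lines medians of its promoter regions; the NELFB promoter, at 73.1% GC, stands above the other circles in each comparison.

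The share of calls differed between chromosomes. On chromosomes 17 and 19, which carry 3 and 2 of the 10 genes, nearly all called regions were increased, with 89.4% to 98.8% on chromosome 17 and 97.2% to 99.6% on chromosome 19. The share of protein-coding genes with a TSS inside an increased region was 6.39% and 13.1% on chromosome 17 in OCI-LY3 at 3 h and 8 h, and 27.2% and 51.6% in VAL. On chromosome 19 it was 13.4%, 27.3%, 24.9% and 47.9% in the same order. On chromosome 4, the home of NELFA, 15.8% to 37.4% of called regions were increased and 5.78% of genes were so called in VAL at 8 h. On chromosome 5, the home of CDK7, the range was 31.3% to 45.0%, and 9.73% of genes were called in VAL at 8 h. The chromosomes of NELFE, NELFB and NELFCD, which are 6, 9 and 20, had 18.7%, 24.2% and 40.8% of genes called in VAL at 8 h. The part of chromosome context in the calls at these genes was not tested.

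Called regions were also counted within 100 kb of each gene body. Summed over the genes the 3 h and 8 h lists of OCI-LY3 gave 21 and 34 increased regions with 2 decreased regions each, and those of VAL gave 49 and 93 increased regions with 1 and 3 decreased. Increased regions made up 91.3% and 94.4% of these in OCI-LY3 and 98.0% and 96.9% in VAL. The same count over all protein-coding genes gave 71.8% and 78.0% in OCI-LY3 and 86.2% and 79.4% in VAL. For the 5 genes on chromosomes 17 and 19 the shares, 87.5% to 98.3%, were below the 96.0% to 99.7% of all protein-coding genes there, where nearly all called regions near genes were increased. For the 5 genes on chromosomes 4, 5, 6, 9 and 20 the shares were 100% in both OCI-LY3 lists and in VAL at 3 h and 94.7% in VAL at 8 h, above the 64.0%, 68.5%, 75.6% and 65.8% of all protein-coding genes there. The mean number of increased regions per gene in VAL at 8 h was 11.4 for the 5 genes on chromosomes 17 and 19 beside 6.76 for all genes there, and 7.20 for the other 5 genes beside 2.18 for all genes on their chromosomes. SUPT5H and PAF1 lie on the same stretch of chromosome 19, so regions between them were counted for both. NELFB had the most in VAL at 8 h, with 17 increased regions, followed by SUPT5H with 16 and PAF1 with 14. Decreased regions lay near 3 genes. The region chr17:56405179-56407983 was decreased in all 4 lists, 21579 bp from the TSS of SUPT4H1. Near POLR2A, chr17:7482340-7483135 was decreased in both lists of OCI-LY3 at a distance of 94655 bp, and near CDK7 2 regions were decreased in VAL at 8 h.

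**Figure D4:**
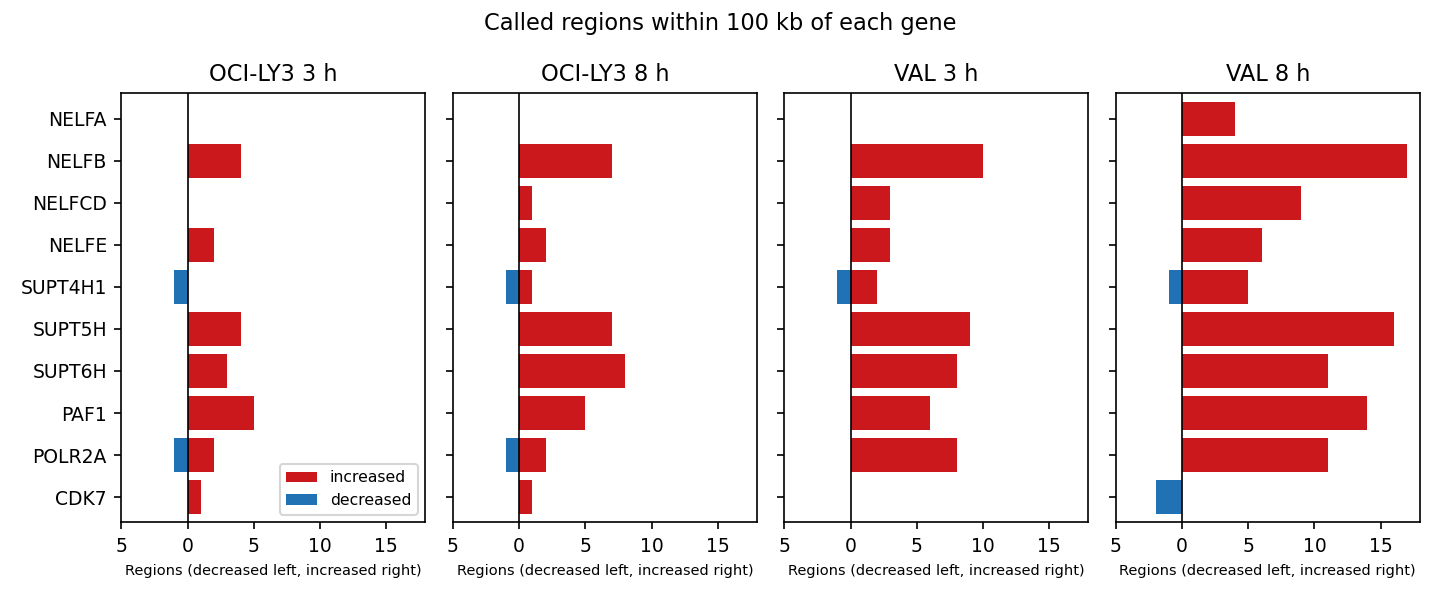
Number of called regions within 100 kb of the body of each gene (y axis) in each comparison (panels), with increased regions to the right of 0 and decreased regions to the left (x axis). NELFB has the longest bar, with 17 increased regions in VAL at 8 h, and SUPT4H1 has 1 decreased region in every panel.

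Other genes of the same machinery were read from lists of 9 PAF1 complex and chaperone genes, 11 further polymerase subunits and 9 TFIIH genes. These lists too were chosen with earlier results of these data known. Of these 29 genes, 8 had an increased region in OCI-LY3 at 3 h, 11 at 8 h, 12 in VAL at 3 h and 13 at 8 h, or 27.6%, 37.9%, 41.4% and 44.8%. Their TSS lay inside it for 8, 10, 11 and 13 genes. For the 29 genes together, the shares lay between those of all protein-coding genes and those of the 10 genes in each list, but the 3 lists differed. In OCI-LY3 at 8 h, 45.5% of the polymerase subunits and 44.4% of the TFIIH genes had an increased region, above the 40.0% of the 10 genes. In the list of PAF1 complex and chaperone genes, which includes POLR2M, 22.2% did. In VAL at 8 h the TFIIH share of 33.3%, or 3 of 9 genes, was near the 34.6% of all protein-coding genes. By a TSS inside an increased region it was also 33.3%, beside 24.0% of all protein-coding genes.

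Among the partners of PAF1 and the chaperones, RTF1 was increased at the TSS in OCI-LY3 at 8 h and VAL at both times, LEO1 in VAL at both times, and SKIC8 and the FACT subunit SUPT16H in VAL at 8 h. SSRP1, the other FACT subunit, was increased at the TSS in OCI-LY3 at 3 h alone. CDC73 had an increased region away from its TSS in OCI-LY3 at 8 h, and CTR9 a decreased one away from its TSS in VAL at 3 h. IWS1, which binds SPT6, was in no list. Nor was POLR2M, which was counted with this group although it is neither a PAF1 complex subunit nor a chaperone.

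The subunits that join POLR2A in the polymerase gave 4, 5, 6 and 6 of 11 promoters in OCI-LY3 at 3 h and 8 h and VAL at 3 h and 8 h. POLR2E and POLR2G were in all 4 lists and POLR2L in all but OCI-LY3 at 3 h. POLR2C, POLR2F and POLR2J shared the pattern of POLR2A, while POLR2D and POLR2H were increased in both lists of OCI-LY3 and in neither of VAL. POLR2B, the second largest subunit, was in no list, nor were POLR2I and POLR2K. The genes for subunits of one enzyme thus had unlike calls.

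The TFIIH genes gave 3, 4, 3 and 3 of 9 promoters in the same order. ERCC2, the XPD helicase gene, and GTF2H3 were in all 4 lists, and GTF2H4 was increased at the TSS at 8 h in both lines. MNAT1, which with cyclin H forms the CDK7 kinase complex, was increased at its TSS in OCI-LY3 at both times and VAL at 3 h, with a decreased region elsewhere in OCI-LY3 at 3 h and VAL at 3 h. CCNH, the gene of cyclin H, had a decreased region away from its TSS in VAL at 8 h and no increased region. ERCC3, GTF2H1, GTF2H2 and GTF2H5 were in no list.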

How the data were processed

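Per the labels and the study's methods, the authors aligned ATAC-seq reads to hg19 with Bowtie2, removed mitochondrial, non-unique and duplicate reads, called peaks per library with MACS2, merged peaks over libraries with bedtools, counted reads in merged peaks and called changed regions with DESeq2 by fold change and adjusted p. Their adjusted p limit differs between the methods text and the figure legend. Tool versions were not given in the sources used here. The authors deposited, for each comparison, 1 list of increased and 1 of decreased regions, whose values are start and end coordinates without a score, a count, a fold change or a p-value. There were 0 further columns of per-sample values. Depth per library is therefore unknown, and no test between groups was possible. The labels give libraries of 2 protocols in each group and the methods describe Fast-ATAC, so which libraries entered each list is not given in the sources used here.

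Regions were placed with Python 3.11.15, numpy 2.4.6 and pysam 0.24.0 on GENCODE 44 lifted to hg19, using TSSs of transcripts tagged basic, windows of 5000 bp, gene bodies over all transcripts and at least 1 bp of overlap. Coordinates are 1-based. Counts stand beside the same count over 20162 protein-coding genes. Placement was tested on simulated regions and motif search on simulated sequence. Alternatives were windows of 1000 bp and 10000 bp, all or canonical transcripts, region midpoints, regions nearest to the gene itself, promoter regions alone, and a wider motif window. The 10 genes and the pathway lists were chosen with earlier results of these data known. By rule, all 10 genes were named, a neighbouring gene was named where a region lay within 1000 bp of its TSS or in its body, and pathway genes came from 3 lists given above. Promoter sequences are from RefSeq (GRCh38), placed in hg19 by exact match. Figures were drawn with matplotlib 3.10.9.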

Additional observations from a re-analysis of the deposited data

How the results depend on the processing

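Of 72 alternative values of counts that were above 0, 70 stayed within 1.5 times the count. The 68 alternatives of decreased counts at 0 were also 0, which the narrower windows could not change. The number of increased regions at the 10 genes in VAL at 8 h, 16, became 10 with windows of 1000 bp without gene bodies, and 10 when only regions whose nearest protein-coding TSS was the gene's own were kept. The comparison of width and GC content depended on the regions set beside these genes. The median width minus that of the list, -13.0 bp and 70.0 bp in OCI-LY3 at 3 h and 8 h and 45.0 bp and 116 bp in VAL, became -163 bp, -132 bp, -105 bp and -132 bp against promoter regions alone. The GC difference, 1.29, 3.27, -0.128 and 0.305 percentage points in the same order, became -3.66, -3.73, -4.94 and -4.63. The wider motif window moved 4 of 8 motif counts, as given with the motifs above. No paired analysis was possible because the values used here are coordinates of called regions without library counts, so no replicate could be left out and no stricter threshold applied.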
